A study of Homo sapiens with 6 samples.

Results

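Olfactory receptor genes lie in large clusters of related copies, and 3 of these clusters were examined here for peaks of YAP and TAZ. The members are deposited broad peaks whose midpoint lies in 1 of 3 windows of the human genome build hg19. The windows are chr11:4350000-6250000 on the short arm of chromosome 11, chr11:55000000-56600000 on its long arm and chr1:247600000-248850000 near the end of chromosome 1. Together they span 4.75 Mb and hold 1133 of the 1390121 deposited peaks. The study carried out chromatin immunoprecipitation followed by sequencing in H1299, a standard cell line from a human non-small cell lung cancer, to compare where YAP and TAZ bind. There were 2 libraries with an antibody against YAP, 2 with an antibody against TAZ and 2 input libraries without antibody. The cells of all 6 libraries were kept without serum for 18 h, and no other treatment or genetic change is labelled. The labels do not say that replicates came from separate cultures, so each spread below is a spread between libraries and may be technical.

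Olfactory receptors are odorant-sensing G protein-coupled receptors of the nasal epithelium, where each sensory neuron transcribes a single receptor gene and keeps the others in closed chromatin. Outside the nose most of these genes are not transcribed. YAP and TAZ are coactivators of the Hippo pathway that do not bind DNA themselves. They are brought to it mainly by TEAD factors, often at enhancers that also bind AP-1. The peak lists hold no histone mark, accessibility or RNA measurement, so whether these clusters were silent in the H1299 cells could not be checked here.

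In the gene order of RefSeq (GRCh38.p14), 143 protein-coding olfactory receptor genes fall in the 3 runs that correspond to the windows by gene name. The short-arm run from OR52B4 to OR52W1 holds 55 of them and 15 other protein-coding genes. Among these are the beta-globin genes HBB, HBD, HBG1, HBG2 and HBE1, the tripartite-motif genes TRIM21, TRIM68, TRIM5, TRIM6, TRIM34 and TRIM22 with the readthrough gene TRIM6-TRIM34, and the metalloproteinase MMP26. The long-arm run from OR4A16 to OR9G4 holds 45 receptor genes and TRIM51. The chromosome 1 run from OR2B11 to OR14I1 holds 43 receptor genes, TRIM58 and GCSAML. Since RefSeq follows another build than the peaks, no peak was assigned to a gene.

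Promoter sequences of these receptors are shown because the TEAD motif is the usual route of YAP and TAZ to DNA. RefSeq promoters, from 250 bases before to 50 after the gene start, were matched for 121 of the 143 genes. The gene start of 49 of them is a start codon, so their true start of transcription may lie further upstream. The letters GGAATG, the core of the TEAD motif, were found on either strand in 19 of the 121 promoters (15.7%), against 14.0% of all 35116 RefSeq promoters. The AP-1 letters TGANTCA were found in 16 (13.2%), against 7.71% of all. The runs differed: TEAD letters stood in 21.4% of promoters on the short arm, 7.14% on the long arm and 18.9% on chromosome 1. AP-1 letters stood in 4.76%, 19.0% and 16.2% in the same order, so for each motif a run lay below the share of all promoters. The receptor promoters were poor in G and C, with a median of 36.7% against 58.7% over all promoters. A match describes letters, not binding. The first receptor gene of each run whose 250 upstream bases hold the TEAD letters is printed 5′ to 3′ on the strand of the gene (GRCh38.p14), ending at the base before the gene start, with GGAATG or its reverse complement in capitals.
OR52I2: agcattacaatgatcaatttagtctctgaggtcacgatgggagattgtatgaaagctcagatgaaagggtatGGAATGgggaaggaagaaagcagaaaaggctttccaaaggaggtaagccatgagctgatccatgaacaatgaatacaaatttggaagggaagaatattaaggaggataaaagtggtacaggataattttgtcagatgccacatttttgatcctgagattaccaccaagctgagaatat
OR4C11: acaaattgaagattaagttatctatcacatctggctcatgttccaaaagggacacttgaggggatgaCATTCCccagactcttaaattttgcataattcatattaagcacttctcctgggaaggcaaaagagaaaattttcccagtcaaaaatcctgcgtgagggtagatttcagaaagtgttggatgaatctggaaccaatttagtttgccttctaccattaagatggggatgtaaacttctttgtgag
OR2G3: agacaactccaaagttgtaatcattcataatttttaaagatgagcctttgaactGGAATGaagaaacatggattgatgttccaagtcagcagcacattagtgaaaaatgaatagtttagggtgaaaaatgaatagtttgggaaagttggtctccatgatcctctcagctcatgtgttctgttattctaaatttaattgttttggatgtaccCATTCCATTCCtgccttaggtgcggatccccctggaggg
OR2G3 on chromosome 1 holds 3 matches, of which the last 2 overlap, and OR52I2 (short arm) and OR4C11 (long arm) hold 1 each.

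The clusters held fewer peaks per Mb than the sequence around them with both antibodies, a ratio of 0.486 as the geometric mean of the 4 libraries (called the averaged ratio from here on). YAP replicate 1 had 379 peaks in the clusters, YAP replicate 2 had 294, TAZ replicate 1 had 244 and TAZ replicate 2 had 216. Per Mb these were 79.8, 61.9, 51.4 and 45.5 peaks. The flanks, taken as 2 Mb on each side where peaks exist, held 133, 118, 116 and 114 peaks per Mb in the same order. Every library was lower in the clusters than every library was in the flanks. Over chromosomes 1 to 22 and X the 4 libraries held 138, 125, 118 and 109 peaks per Mb. Stretches of at least 200 kb without a peak of any library were left out of that length. They were also left out of the genome values for covered share, bins and peak-free stretches below.

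A flank was ended where a stretch of at least 200 kb held no peak of any library. The left flank of the long-arm cluster, which faces the centromere, was therefore 0.204 Mb long. The right flank of the chromosome 1 cluster was 0.391 Mb long because the peaks end there with the chromosome. The ratio of clusters to flanks was 0.601 and 0.526 in the YAP libraries, against 0.444 and 0.398 in the TAZ libraries. The mean log2 ratio was -1.04 ± 0.26 (SD, n = 4), and an exact two-sided sign-flip permutation test over the libraries gave p = 0.125. This is the smallest p that 4 libraries allow, so the test could not pass 0.05, and adjustment over the 16 ratios tested gave 0.143.

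**Figure D1:**
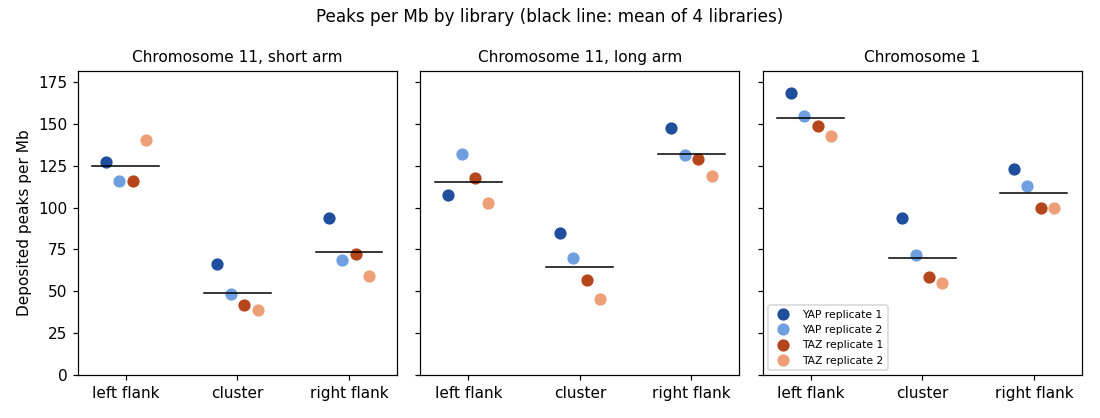
Deposited peaks per Mb (y axis) in the left flank, the cluster and the right flank of each olfactory receptor cluster, with 1 point per library and a black line at the mean of the 4 libraries. Within each library the cluster lies below both of its flanks on all 3 panels, and the short-arm cluster and its right flank lie closest together.

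Each cluster showed the difference by itself. In the short-arm cluster the libraries had 66.3 and 48.4 peaks per Mb for YAP, against 42.1 and 38.9 for TAZ, the lowest of the 3 clusters in each library. Its left flank had 127, 116, 116 and 140 peaks per Mb, and its right flank only 93.5, 68.5, 72.5 and 59.5. The right flank thus overlapped the cluster when libraries were compared with each other, though within each library it was higher. RefSeq gene order places more receptor genes beyond this side, among them OR2AG2, OR2AG1 and OR6A2. The averaged ratio was 0.386 to the left flank and 0.661 to the right flank.

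The long-arm cluster had 85.0 and 70.0 peaks per Mb for YAP, against 56.9 and 45.6 for TAZ. Its right flank had 148, 132, 129 and 119, and no library of the cluster reached any of these. The averaged ratio to both flanks was 0.483. It was 0.876 when the left flank was kept at 2 Mb, most of which holds no peak (exact two-sided sign-flip permutation p = 0.375). YAP replicate 1 was then higher in the cluster, with 85.0 peaks per Mb against 79.3 in the flanks, and the other libraries stayed lower. The chromosome 1 cluster had 93.6 and 72.0 peaks per Mb for YAP, against 58.4 and 55.2 for TAZ. Its left flank had 168, 155, 149 and 143 peaks per Mb, above the cluster in every library. Its 0.391 Mb right flank had 123, 113, 99.8 and 99.8, where both TAZ libraries came close to the 93.6 of YAP replicate 1 in the cluster. The averaged ratio was 0.446 to the left flank, 0.630 to the right flank and 0.468 to both.

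Coverage differed more than peak number. Deposited peaks covered 6.53% and 5.05% of the clusters in the YAP libraries, against 3.74% and 3.31% in the TAZ libraries. Over chromosomes 1 to 22 and X they covered 18.1% and 15.8% for YAP, against 14.3% and 15.0% for TAZ. They covered 17.2% and 13.7% of the flanks for YAP, against 12.3% and 13.5% for TAZ. The averaged ratio of covered shares was 0.320, with a range of 0.246 to 0.380 over the libraries (exact two-sided sign-flip permutation p = 0.125, adjusted 0.143). By cluster the averaged ratio was 0.295 on the short arm, 0.325 on the long arm and 0.311 on chromosome 1. The clusters lay below the flanks in all 4 libraries for each of them, but the sides differed. On the short arm the averaged ratio was 0.196 to the left flank and 0.608 to the right, and on chromosome 1 it was 0.288 and 0.517. On the long arm it was 0.185 and 0.358, and with the left flank kept at 2 Mb the ratio to both was 0.590.

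**Figure D2:**
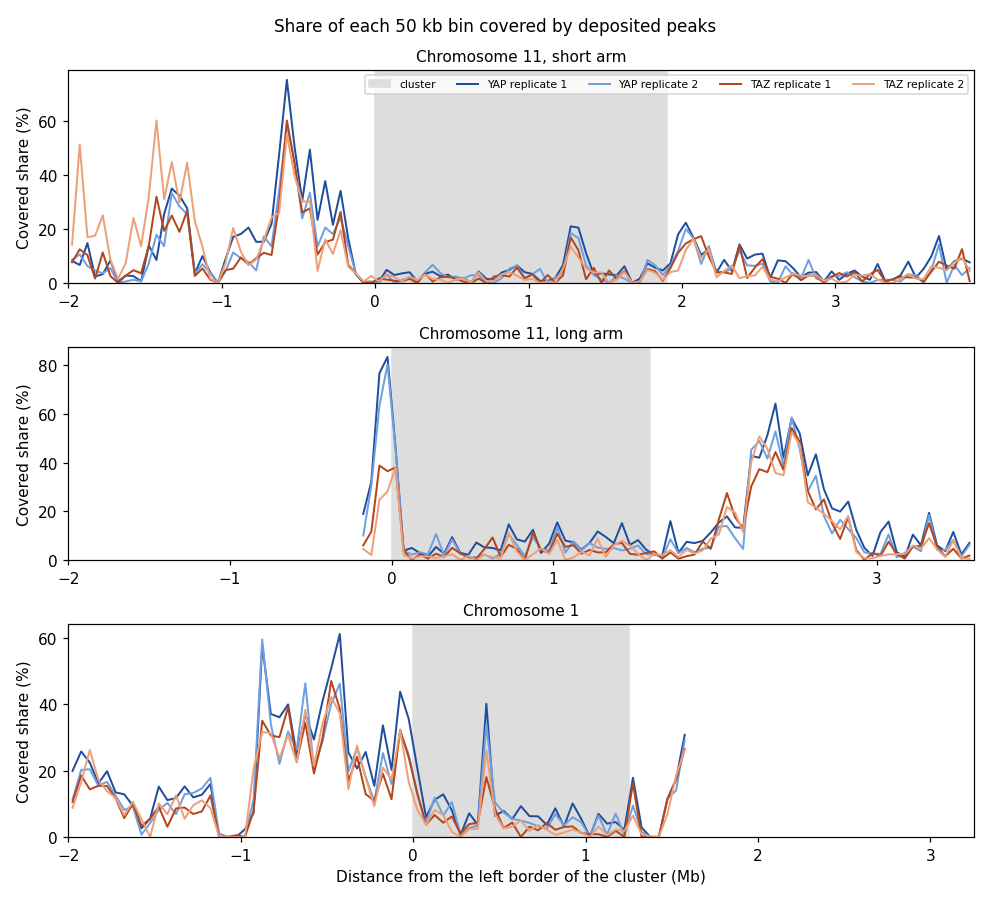
Share of each 50 kb bin covered by deposited peaks (y axis, percent) against the distance of the bin from the left border of the cluster (x axis, Mb), with 1 line per library and the cluster shaded; bins touching a stretch of at least 200 kb without any peak are not drawn. The lines stay low through most of each cluster, with single raised bins inside it, and the densest flank bins reach a mean of 62.2%, 57.1% and 46.1% for the short-arm, long-arm and chromosome 1 clusters.

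Peaks in the clusters were also narrower. The YAP libraries had median widths of 451 and 416 bp and the TAZ libraries 394 and 393 bp. Over chromosomes 1 to 22 and X the medians were 613, 629, 638 and 717 bp in the same order. In the flanks they were 714, 698, 638 and 805 bp. The averaged ratio to the flanks was 0.580, and all 4 libraries were lower in the clusters (exact two-sided sign-flip permutation p = 0.125, adjusted 0.143). Peaks of at least 2000 bp made up 5.01%, 5.10%, 4.10% and 4.17% of the cluster peaks and 17.5%, 15.3%, 13.7% and 15.5% of the flank peaks. Over chromosomes 1 to 22 and X they made up 17.1%, 16.4%, 15.5% and 17.7%. Narrow peaks differed less: the lower quartile of width lay between 272 and 317 bp in the clusters and between 318 and 355 bp in the flanks.

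The width difference was not the same on each side of each cluster. On the short arm, the cluster's median widths of 401, 407, 388 and 396 bp were close to the 435, 455, 414 and 380 bp of its right flank, and TAZ replicate 2 was wider in the cluster. Against the left flank, with 933, 711, 750 and 912 bp, the cluster peaks were narrower in every library. The 0.204 Mb left flank of the long-arm cluster stood apart, with medians of 2053, 1583, 1636 and 1027 bp over only 21 to 27 peaks per library.

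**Figure D3:**
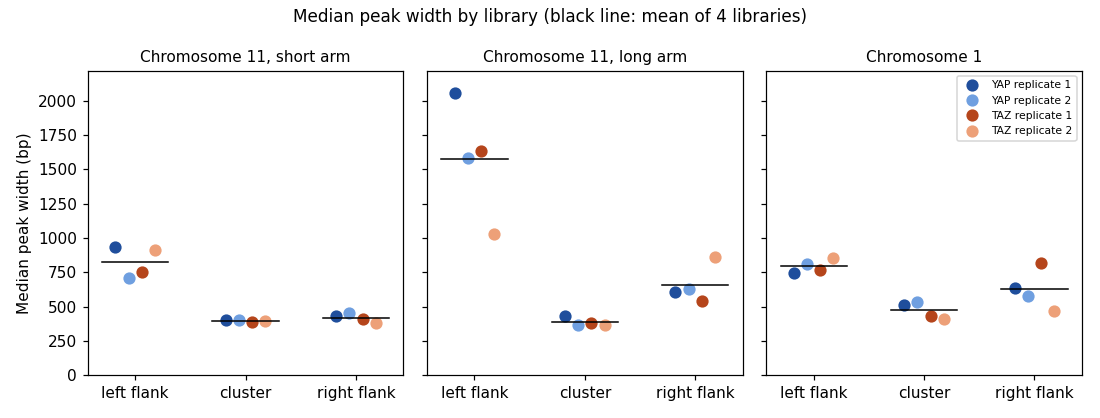
Median width of deposited peaks in bp (y axis) for the left flank, the cluster and the right flank of each olfactory receptor cluster, with 1 point per library and a black line at the mean of the 4 libraries. Cluster medians lie between 366 and 538 bp in all libraries, and the widest medians belong to the short left flank of the long-arm cluster.

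The enrichment of the peaks that were present differed little. The authors' fold, the ratio of antibody signal to input across a peak, had a median of 2.89 and 3.02 in the clusters for YAP, against 2.94 and 2.92 for TAZ. In the flanks the medians were 3.03, 3.07, 3.08 and 2.89. The averaged ratio was 0.976, lower in 3 of 4 libraries (exact two-sided sign-flip permutation p = 0.25, adjusted 0.267). TAZ replicate 2 was slightly higher in the clusters. On the long arm the sides went opposite ways in all 4 libraries. There the averaged ratio was 1.16 to the left flank and 0.951 to the right. Folds are given only for called peaks, so weaker signal is not part of these medians.

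High folds were less frequent in the clusters than over the genome. In each YAP library and in TAZ replicate 1, 13 cluster peaks had a fold of 4 or more, and in TAZ replicate 2 there were 5. As shares of the cluster peaks these were 3.43%, 4.42%, 5.33% and 2.31%. Over chromosomes 1 to 22 and X the shares were 9.22%, 7.52%, 9.68% and 5.6%, and in the flanks 6.30%, 5.93%, 6.54% and 3.97%. Against its own flanks the short-arm cluster was higher in YAP replicate 1 (1.59% against 1.36%) and TAZ replicate 1 (6.25% against 3.99%). The long-arm cluster was higher in YAP replicate 2 (7.14% against 6.55%). In every other library each cluster was lower than its own flanks. Strong peaks, the 20000 peaks with the highest −log10 q of each library, were rarer in the clusters than over the genome in every library. The clusters held 2 and 8 of them for YAP, against 1 and 3 for TAZ, or 0.528%, 2.72%, 0.410% and 1.39% of the cluster peaks. The same share over the genome is 5.1%, 5.66%, 6% and 6.44%, which the length of each list sets. In the flanks the shares were 1.49%, 2.18%, 2.62% and 2.44%, so YAP replicate 2 was higher in the clusters and the other libraries were lower. The long-arm cluster held most of the strong peaks, with 1 and 6 for YAP and 1 and 3 for TAZ. Its 6 in YAP replicate 2 were 5.36% of its peaks, against 3.10% in its flanks, and its 3 in TAZ replicate 2 were 4.11%, against 2.32%. The short-arm cluster held 0 strong peaks in all 4 libraries. These shares are descriptions, since peaks of 1 library are not replicates.

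Much of the clusters was sparse. A 50 kb bin was called sparse in a library if peaks covered less than 0.5 of the share they cover in the median bin of that library. In YAP replicate 1, 54 of the 95 cluster bins were sparse, against 23.8% of all 56757 bins. YAP replicate 2 had 57 sparse cluster bins (27.2% of all bins), TAZ replicate 1 had 61 (28.2%) and TAZ replicate 2 had 68 (30.7%). In all 4 libraries at once, 37 of the 95 bins were sparse (38.9%), against 14.9% of all bins and 35 of the 172 flank bins (20.3%). The short-arm cluster accounted for 23 of these 37 (of its 38 bins), the long-arm cluster for 9 of its 32 bins and the chromosome 1 cluster for 5 of its 25. The share on chromosome 1 was thus 20%, beside the background of 14.9% and the 14.6% of its own flank bins. On the long arm it was 28.1%, beside 9 of 44 flank bins (20.5%). On the short arm it was 60.5%, beside 19 of 80 flank bins (23.8%), most of which lay in the right flank.

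Stretches without a peak of any library were longer in the clusters. Their median length was 5302 bp, against 2460 bp in the flanks and 2774 bp over the genome. The longest in each cluster ran over 65905 bp on the short arm (chr11:5995666-6061570), 42264 bp on the long arm (chr11:55232637-55274900) and 67447 bp on chromosome 1 (chr1:248615185-248682631). Stretches of at least 20 kb made up 27.2% of the clusters, 15.4% of the flanks and 10.99% of the genome. By cluster the share was 36.4% on the short arm, 18.3% on the long arm and 24.6% on chromosome 1. The sides differed here as well. The right flank of the chromosome 1 cluster had 39.7%, above its cluster and all from 1 stretch, and the left flank had 12.8%. The short-arm right flank, with 28.2%, lay below its own cluster but above the other clusters. Single stretches were longer in the flanks of 2 clusters, with 105320 bp beside the short-arm cluster and 154957 bp beside that of chromosome 1.

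The covered bases were spread unevenly over the bins of each cluster. Shares of this kind were not computed for the flanks, which also had single dense bins, so the skew was not shown to be particular to the clusters. The 5 densest of the 38 bins of the short-arm cluster held 41.1% of its covered bases, averaged over libraries. The shares were 44.8% for 5 of 32 bins on the long arm and 49.1% for 5 of 25 on chromosome 1. On the short arm the densest bin was chr11:5600001-5650000, with 21.0% and 18.4% covered for YAP, against 16.8% and 13.4% for TAZ. The next bin, chr11:5650001-5700000, had 20.5%, 16.6%, 12.1% and 9.39%, and the one after these in rank had a mean of only 6.42%. The adjoining pair thus formed the 1 raised stretch of that cluster in all 4 libraries. The widest peak of the cluster, 3085 bp in YAP replicate 2 (chr11:5688581-5691665), lay in it. In RefSeq order the cluster's inner genes other than receptors include TRIM6, TRIM34, TRIM5 and TRIM22, which follow each other; whether they lie under these bins was not analysed here.

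On chromosome 1 the densest bin, chr1:248000001-248050000, had 40.2% and 34.0% covered for YAP, against 18.0% and 26.1% for TAZ. The median bin of that cluster had 6.26%, 4.93%, 3.07% and 2.32%, so the bin stood out in every library. It held the widest peak of the cluster, 3935 bp in YAP replicate 1 (chr1:248010021-248013955, fold 3.05). It also held 2 of the 3 best-ranked regions with peaks in all libraries, chr1:248004706-248006314 and chr1:248019819-248022494. The latter had a fold of 3.32 and 3.65 for YAP, against 3.31 and 3.56 for TAZ.

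On the long arm the densest bin was the first one, chr11:55000001-55050000, with 46.1% and 45.4% covered for YAP, against 38.0% in both TAZ libraries. It continues the covered stretch outside the border, where the adjoining bin had 83.5%, 80.3%, 36.5% and 28.2%. In both YAP libraries 1 peak spanned most of its left part, 21153 bp and 21142 bp wide, with a fold of 2.77 and 3.08. Without this bin the long-arm cluster was covered to 6.84%, 4.67%, 3.87% and 2.79%. Leaving out the densest bin of each cluster, a choice made after seeing the data, moved the averaged ratio of covered shares to 0.262 and that of peak density to 0.461. The flanks kept all their bins, dense ones included. The covered share ratio could therefore only fall, and its fall says nothing about a difference between clusters and flanks.

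At the other borders the change was stepwise or absent. Outside the right border of the chromosome 1 cluster the bin was covered to 17.8%, 9.47%, 16.1% and 6.39%, and inside it to 2.09%, 0.528%, 0% and 1.77%. This rise did not last: the next bin outward, chr1:248900001-248950000, had 2.87%, 1.59%, 0% and 0.83%. The bin after that, chr1:248950001-249000000, had 0% in every library. At the left border of the chromosome 1 cluster the mean over libraries was 25.2% outside and 13.6% inside. On the short arm the means were 0.775% outside and 0.682% inside on the left, and 5.79% and 2.35% on the right. At the right border of the long-arm cluster they were 2.57% and 2.37%. The windows of the rule therefore do not mark a change in coverage at each border.

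Peaks in the clusters were shared by fewer libraries. Peaks of the 4 libraries merged into 515 regions in the clusters, of which 81 had a peak of every library. This share of 15.7% (95% Wilson interval 12.8 to 19.1%, counting error over regions only) compares with 39.2% of all 452943 merged regions and with 32.8% in the flanks (30.5 to 35.3%). By cluster the share was 11.6% on the short arm, 17.6% on the long arm and 18.4% on chromosome 1. The sides differed here too. The right flank of the short-arm cluster, with 14.3% (10.6 to 19.0%), lay close to its cluster. So did the left flank of the long-arm cluster, with 18.5% of only 27 regions (8.18 to 36.7%). The remaining flanks had 28.2% (short arm, left), 35.3% (long arm, right), 47.7% and 44.1% (chromosome 1, left and right). Regions with a peak of 1 library made up 37.1% in the clusters, 30.1% in the flanks and 22.4% of all. Width moved with this share within the clusters, where regions of all 4 libraries had a median width of 1438 bp and those of 1 library 346 bp. The part of width in this share was not tested.

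**Figure D4:**
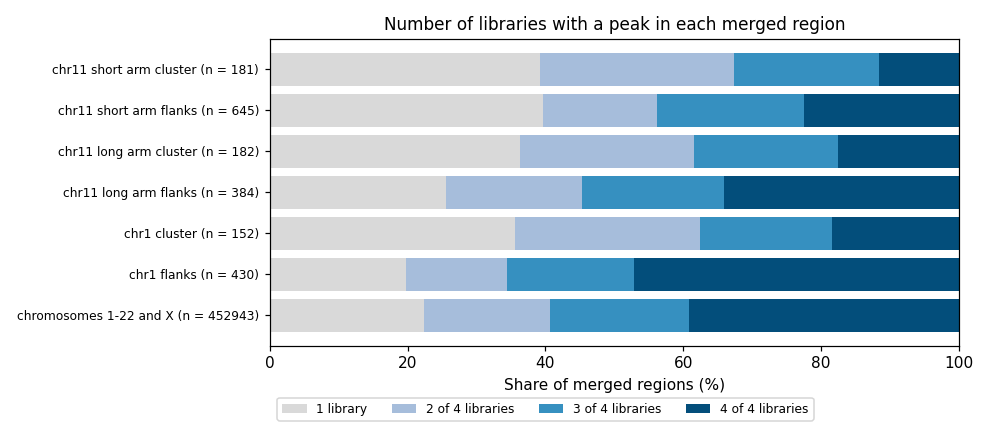
Share of merged regions (x axis, percent) that hold a peak of 1, 2, 3 or all 4 libraries, for each cluster, its flanks and chromosomes 1 to 22 and X, with the number of regions in the label. The segment for all 4 libraries is shorter in each cluster (11.6%, 17.6% and 18.4%) than in its flanks (22.5%, 34.1% and 47.2%).

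The best-ranked regions with peaks in all 4 libraries were modest in fold. They were chosen in each cluster by the sum over libraries of the rank of −log10 q. The first on the short arm, chr11:5916974-5917767, had a fold of 3.74 in both YAP libraries, and for TAZ 2.76 and 3.01. The other 2, chr11:4520105-4521321 and chr11:5007537-5009401, had folds between 2.52 and 3.53. On the long arm the first was the wide region at the left border, and the next were chr11:55973525-55974021 and chr11:55940469-55940936. The former had a fold of 3.93 and 3.89 for YAP, against 2.96 and 3.71 for TAZ, the latter 3.38, 3.24, 3.56 and 4.14. The first on chromosome 1, chr1:248583659-248584132, had 4.42 and 3.35 for YAP, against 4.23 and 4.01 for TAZ.

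The highest folds differed in place between libraries. On the long arm they were 4.63 in YAP replicate 1 (chr11:56360493-56361076), 5.34 in YAP replicate 2 (chr11:56567965-56568314), 5.09 in TAZ replicate 1 (chr11:55955068-55955451) and 4.42 in TAZ replicate 2 (chr11:56402843-56403164). Of these, 3 overlapped peaks of all other libraries, and that of YAP replicate 2 overlapped peaks of 2. On the short arm the highest folds were 4.11 and 4.08 for YAP, against 4.31 and 3.94 for TAZ, and none of the 4 peaks overlapped peaks of all other libraries. On chromosome 1 they were 4.76, 4.58, 4.23 and 4.18, of which both TAZ peaks overlapped peaks of all other libraries.

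The YAP libraries had more peaks in the clusters than the TAZ libraries. YAP had a mean of 336.5 ± 60.1 peaks and TAZ of 230 ± 19.8 (SD, n = 2 each). Their geometric means stood in a ratio of 1.45. Neither YAP library was as low as a TAZ library; p was 0.333 in an exact two-sided permutation test, the smallest value that 2 against 2 libraries allow. The same ratio was 1.09 in the flanks and 1.16 over chromosomes 1 to 22 and X. The order of the 4 libraries in the clusters is the order of their list lengths, 392250, 353465, 333625 and 310781 peaks. With every list shortened to the shortest the ratio in the clusters was 1.06, and with peaks of a q-value of at most 0.01 it was 1.86. The depth of the libraries is unknown, so antibody and depth cannot be told apart.

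The ratio of clusters to flanks was also higher in the YAP libraries than in the TAZ libraries. The averaged density ratio of clusters to flanks was 0.562 for YAP, against 0.420 for TAZ, a quotient of 1.34 (exact two-sided permutation p = 0.333). It was 1.22 with shortened lists. Each cluster had the same order in density, with quotients of 1.35 on the short arm, 1.35 on the long arm and 1.3 on chromosome 1, from the same 4 libraries. For covered share the quotient was 1.37 over all clusters, and 1.46, 1.14 and 1.51 by cluster in the same order. On the long arm the YAP and TAZ libraries overlapped in that measure (exact two-sided permutation p = 0.667). Among the 138 merged regions with peaks of exactly 2 libraries, 53 held those of both YAP libraries (38.4%) and 8 those of both TAZ libraries. Over all chromosomes the YAP pair made up 37.6% of such regions, so its share in the clusters was near the background. The TAZ pair was the rarer one there too, with 6511 of 82819 such regions.

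Overlap between libraries was lower in the clusters for every pair. Each library also covered less of the clusters (3.31% to 6.53%) than of the flanks (12.3% to 17.2%), and the cluster peaks were narrower. The part of coverage and width in the lower overlap was not tested. No overlap share over all chromosomes was computed. Of the cluster peaks of YAP replicate 1, 57.3% overlapped a peak of YAP replicate 2, against 70.5% of its flank peaks. For TAZ replicate 1 and TAZ replicate 2 the shares were 48.8% and 68.4%. Taken from the shorter list of each pair, 73.5% of the cluster peaks of YAP replicate 2 overlapped YAP replicate 1 and 55.6% of those of TAZ replicate 2 overlapped TAZ replicate 1. Of the TAZ replicate 1 cluster peaks, 74.6% overlapped a peak of YAP replicate 1, more than overlapped the other TAZ library. The YAP list is the longer one and covers more of the clusters (6.53% against 3.31%).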

How the data were processed

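Broad peaks had been called by the authors in each antibody library against an input; cutadapt, Bowtie2, SAMtools and MACS2 with build hg19 are named per the submitters' processing notes, and their settings are not given in the sources used here. Each fold, as deposited, is a ratio of antibody signal to input. The deposited −log10 p and −log10 q are the peak caller's, and the smallest −log10 q was 1.00 to 1.02 by library. The deposited score restates −log10 q and was not used. Peak names inside the lists name 1 common input, whereas the lists' own names give 1 per replicate number, so which input was used is unsettled. The lists hold no read totals, so depth is unknown. How reads from near-identical receptor copies were mapped is not given in the sources used here, and its effect on peak number was not tested.

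Peaks were assigned by midpoint (Python 3.11.15, pandas 2.3.3). Covered share counts bases inside a window. Regions named in the text followed a fixed rule: best-ranked regions with peaks of all libraries, widest and highest-fold peaks, longest peak-free stretches, densest bins and border bins. Ratios were tested with exact permutation tests and Benjamini-Hochberg adjustment. The code was tested on simulated data. Windows, gene runs and motifs were chosen with earlier results of these data known.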

Additional observations from a re-analysis of the deposited data

How the results depend on the processing

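The lower peak density, covered share and median width of the clusters kept the direction of their average over libraries under every alternative computed, for the 3 clusters together and for each. In single libraries, density turned in YAP replicate 1 on the long arm with whole flanks (85.0 peaks per Mb against 79.3), and covered share in none. Width was not compared among folds of at least 4. The smallest p of these tests lies above 0.05, so no alternative moves one across it. For all clusters, the density ratio (0.486) lay between 0.420 with flanks of 1 Mb and 0.588 with whole flanks, and at 0.322 for folds of at least 4; the covered share ratio (0.320) fell to 0.214 for those folds. For the long arm, whole flanks gave a covered share ratio of 0.590 against 0.325, and folds of at least 4 gave 0.194. For chromosome 1, folds of at least 4 gave a density ratio of 0.231. For the short arm no ratio was computed for those folds, since TAZ replicate 2 had 0 such peaks. Leaving out 1 library gave density ratios of 0.453 to 0.520 and covered share ratios of 0.303 to 0.350.

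Bins sparse in all libraries numbered 11 (of 95) under 0.25 of the median, 23 by peak midpoints and 69 of 190 with bins of 25 kb, against 4.98%, 8.19% and 16.8% of all bins. Regions with peaks of every library made up 8.54% of cluster regions at a q-value of at most 0.01 (19.4% in the flanks, 28.5% of all). They made up 20.2% to 25.7% when 1 library was left out and 3 peaks sufficed, against 37.9% to 44.5% in the flanks and 44.0% to 50.05% of all.

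The labels number YAP and TAZ libraries alike but do not say that a number marks a shared culture. With the replicate number as a block, the log2 differences stayed at 0.54 for peak number and 0.42 for the cluster-to-flank ratio, as they must with balanced pairs (exact sign-flip permutation p = 0.5, the smallest possible). Deviations of same-numbered libraries correlated at 0.310 over all bins and -0.126 over the cluster bins; the crossed pairing gave the same differences.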
